A study of Mus musculus with 6 samples.

Results

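The genes described here make cholesterol and fatty acids or control that synthesis. The set has 31 named members, from Hmgcs1 at the head of the mevalonate pathway to the fatty acid desaturases, and its members were found as the probe sets of the array whose single platform gene symbol is one of these names. Of the 31 members, 30 had at least 1 such probe set; Acat2 had none. Together the 30 genes had 72 of the 45037 probe sets measured, of which 63 passed a filter on dim signals, and each of the 30 kept at least 1 probe set.

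Whole lung RNA was hybridised to 6 arrays, each a pool of 3 mice. The control group had a female pool, labelled only by its strain FVB/N, and a male pool labelled SM22-rtTA only; by the series text, control mice had the transactivator and no receptor transgene. The other 4 pools came from SM22-dnBMPR2 inducible transgenic mice, 1 female and 1 male pool after 1 week of activation and 1 of each sex after 8 weeks; those mice are stated to have had raised right ventricular pressure. The dominant-negative BMPR2 receptor is driven by the SM22 promoter, which is active mainly in smooth muscle, whereas the RNA came from all cells of the lung. RNA extraction is described only for the transgenic samples, no age or inducing agent is given, no control was labelled with an activation time, and the same control pair served both durations. Time, age, inducer and transgene therefore cannot be told apart. Within the control group, sex and label cannot be told apart either. Each group had 1 pool per sex. The spread in the tests of group and of sex is therefore how far female and male pools differed in their response.

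Cholesterol is built from acetyl-CoA by way of mevalonate, isoprenoid units and squalene, and fatty acids by the carboxylation and repeated condensation of acetyl-CoA, followed by elongation and desaturation. Many of these enzymes are controlled together by the sterol regulatory element-binding proteins, which are escorted from the endoplasmic reticulum by SCAP when sterols are low and held there by the INSIG proteins when sterols are high. In the lung the alveolar type 2 cell uses this machinery to make surfactant lipid, and alveolar macrophages take surfactant lipid up and break it down.

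All 6 typical lung markers were above the filter. The deposited array medians ran from 50.49 to 63.41 and were lowest in the 8 week pools. The 3 kept Bmpr2 probe sets, which do not separate the endogenous gene from the transgene, had log2 changes of -0.93, -0.26 and 0.01 at 8 weeks and of -0.44, -0.08 and -0.22 at 1 week. Cardiac muscle markers separated the 8 week pools from the rest: their summed intensity was 2596 and 6544 in the 8 week pools and 12043 to 17344 in the other 4.

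After 8 weeks of activation most of the synthesis genes had a higher signal than in the control pools, by a modest amount. At the brightest kept probe set of each gene, 21 of the 30 were higher in both sexes, 3 were lower in both and 6 went opposite ways in the female and male pools. The median change was 0.36 on the log2 scale, 0.28 in female and 0.43 in male pools, against a median of 0.08 over all 13215 genes with a kept probe set. Among all those genes 42.2% were higher and 25.0% lower in both sexes. In 17 of the 30 genes both 8 week pools lay above both control pools, where 27.2% of all genes did; in 1 gene, Insig2, both lay below, where 14.1% of all genes did. In whole tissue, a change in the number of cells that express a gene and a change in RNA per cell cannot be told apart.

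No single member passed the test at 8 weeks. With limma and Benjamini-Hochberg adjustment over the 27022 kept probe sets, 0 of the 63 member probe sets passed an adjusted p of 0.05, where 0.596% of all kept probe sets did. At an unadjusted p below 0.05, 24 of the 63 were higher and 1 lower, where 3188 and 3028 of all 27022 kept probe sets were. Counted by gene, 13 of the 30 were higher and 0 lower, where 1828 (13.8%) and 827 of all 13215 genes were. Over the alternative settings that count of 13 ran from 7 to 17, and the share of all genes was not counted there. With any 1 of the 6 pools left out, which leaves 1 pool in a group, the median change was 0.29 to 0.41. With a variance prior that follows intensity and is robust to outliers, 13 of the 63 passed (20.6%, against 7.09% of all probe sets), all of them higher, belonging to Fdps, Idi1, Fasn, Hmgcs1, Acsl4, Elovl1, Dhcr7, Mvd and Acly. Scaling moved the size of the change: the median over the members was 0.24 with the values as deposited and 0.51 with each array centred on its median, while the median over all kept probe sets went from 0.03 to -0.13 and 0.14. Relative to the median over all kept probe sets, the members at their brightest probe sets stood 0.32 higher in the main analysis. Under either other scaling they stood 0.37 higher. These are unlike sets: all genes at their brightest probe sets had a median of 0.08 in the main analysis, above the 0.03 of all kept probe sets.

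**Figure D1:**
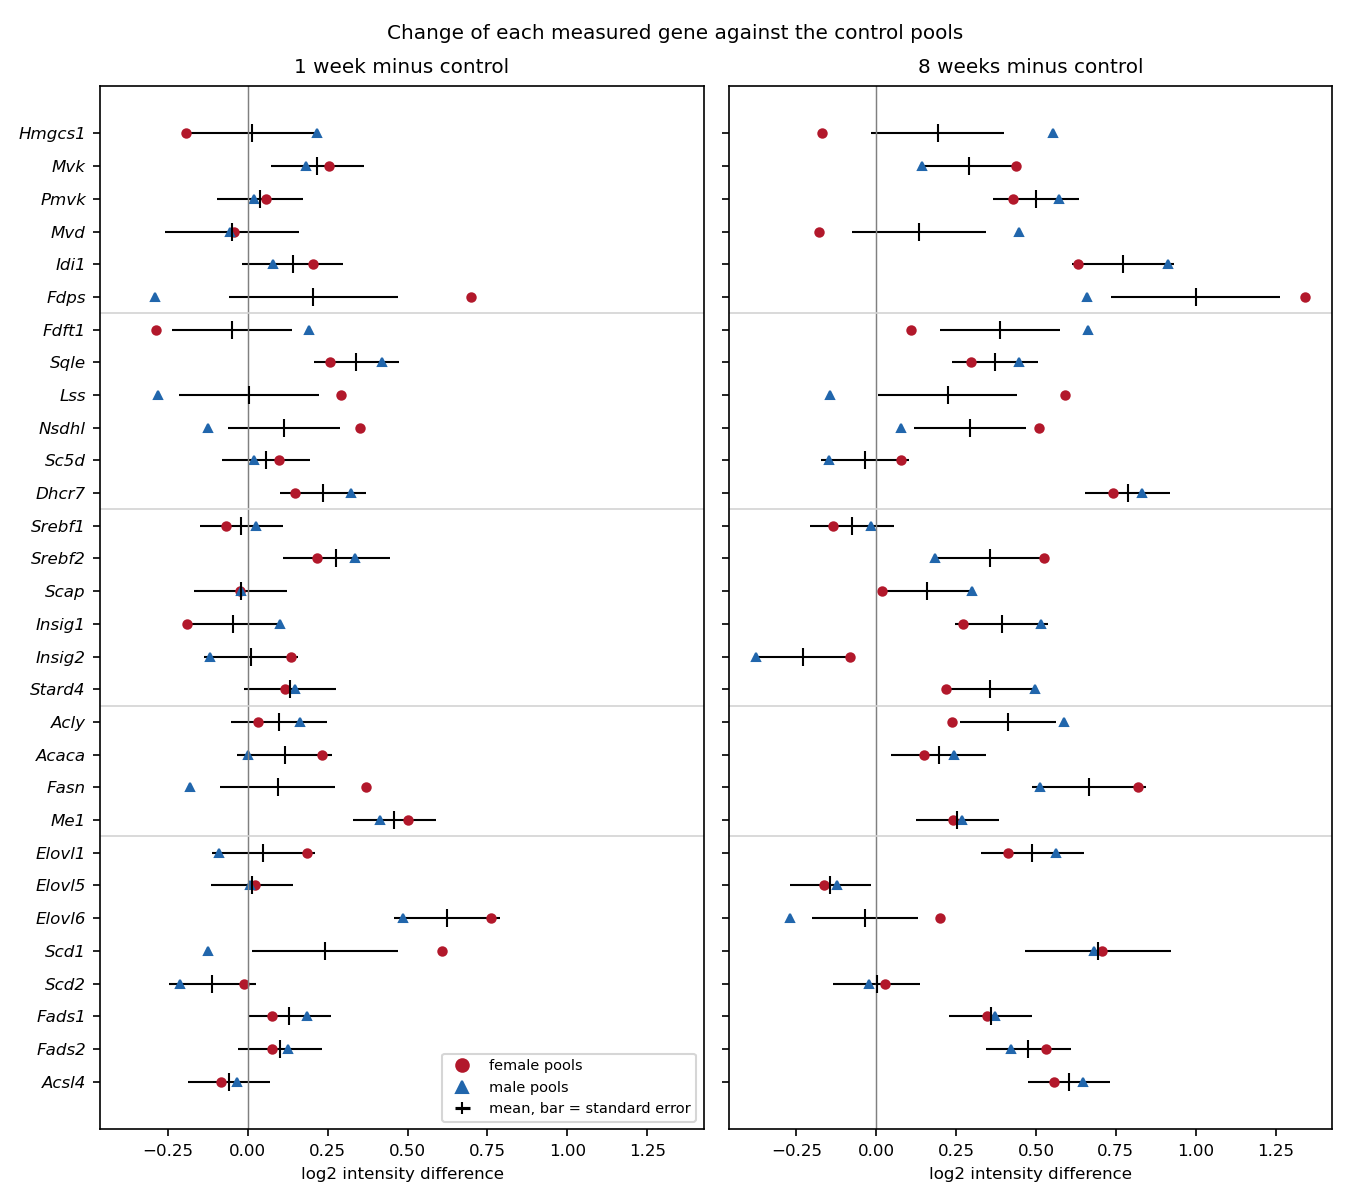
Change in log2 intensity of the 30 measured genes after 1 week (left) and 8 weeks (right), in order of their place in the pathways, with grey lines between groups; circles are female and triangles male differences from the control pool of that sex, and the black tick and bar are their mean and its standard error. At 8 weeks 21 genes have both symbols to the right of 0, led by Fdps at 1.00, and at 1 week 15 do.

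**Figure D2:**
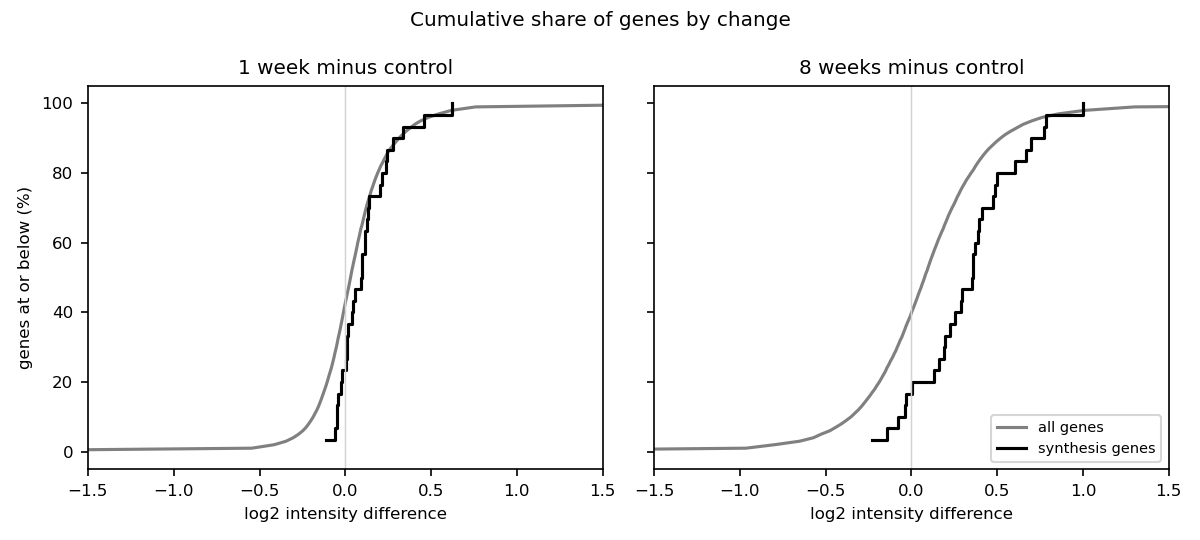
Cumulative share of genes (%) by their log2 change after 1 week (left) and 8 weeks (right), for the 30 synthesis genes (black steps) and all 13215 genes (grey line). The medians of the synthesis genes are 0.10 and 0.36, against 0.03 and 0.08 over all genes.

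Below, paired values are given for the female pool and then the male pool, as log2 intensity, and each gene is represented by its brightest kept probe set. Levels are not comparable between genes, since probe sets differ in how strongly they hybridise.

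Of the 6 mevalonate pathway enzymes, 4 were higher in both sexes at 8 weeks, with a median change of 0.40. Fdps, farnesyl diphosphate synthase, had the highest change of all members. Its log2 intensity was 8.12 and 8.69 in the control pools, 8.82 and 8.40 after 1 week and 9.46 and 9.35 after 8 weeks. Both 8 week pools were above the other 4, a change of 1.00 ± 0.26 (SE, adjusted p = 0.132) on the log2 scale. Leaving out the female or the male control pool gave 0.58 or 1.41. Idi1, which interconverts the isoprenoid units, measured 9.29 and 9.38 in controls, 9.49 and 9.45 at 1 week, and 9.92 and 10.29 at 8 weeks. Its 8 week pools again stood apart from the rest, at 0.77 ± 0.16 above control (SE, adjusted p = 0.101). Pmvk, phosphomevalonate kinase, stood at 7.62 and 7.42, then 7.67 and 7.44, then 8.05 and 7.99; the change at 8 weeks was 0.50 ± 0.13 (SE, adjusted p = 0.135). For Mvk, mevalonate kinase, the values were 7.24 and 7.27, then 7.50 and 7.45, then 7.68 and 7.41, so the female 8 week pool was the highest and the male one lay between the control and the 1 week pools. Hmgcs1, the cytosolic HMG-CoA synthase, did not separate the groups at its brightest probe set: 11.00 and 10.56 in controls, 10.80 and 10.78 at 1 week, 10.83 and 11.12 at 8 weeks. Its other kept probe sets had changes of 0.48, 0.48, 0.60 and 0.05 at 8 weeks. Mvd, mevalonate diphosphate decarboxylase, read 7.79 and 6.73, then 7.75 and 6.68, then 7.62 and 7.18, and differed more between the sexes than between the groups.

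The enzymes that carry farnesyl diphosphate through squalene to cholesterol were again higher in both sexes in 4 of 6 cases at 8 weeks, with a median of 0.33. Dhcr7, the reductase of the last step, had the smallest adjusted p of the 30 genes. It measured 7.43 and 6.99 in the control pools, 7.58 and 7.32 after 1 week and 8.17 and 7.83 after 8 weeks. The 8 week pools exceeded the other 4, and the change of 0.79 ± 0.13 (SE, adjusted p = 0.0807) was close to equal in female (0.74) and male pools (0.83). Sqle, squalene epoxidase, was already higher at 1 week: 8.84 and 8.76 in controls, 9.10 and 9.18 at 1 week, 9.14 and 9.21 at 8 weeks. Its changes were 0.34 ± 0.13 (SE, adjusted p = 0.901) and 0.37 ± 0.13 (SE, adjusted p = 0.199), so the durations overlapped with each other and not with the controls. Fdft1, squalene synthase, stood at 9.10 and 8.96, then 8.81 and 9.15, then 9.21 and 9.62. Nsdhl, a sterol dehydrogenase of the demethylation steps, had 8.05 and 8.58, then 8.40 and 8.45, then 8.56 and 8.66, with the female control pool alone at the low end. Lss, lanosterol synthase, measured 6.70 and 6.89, then 6.99 and 6.61, then 7.29 and 6.74, and went opposite ways in the sexes. Sc5d, sterol-C5-desaturase, stayed near its control level at 8.62 and 8.44, then 8.72 and 8.46, then 8.70 and 8.30.

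The regulators did not share 1 direction: at 8 weeks 4 of the 6 genes for sterol sensing and transport were higher in both sexes and 2 were lower, with a median of 0.26. Insig1, which retains SCAP and is itself a target of the pathway, had 9.55 and 9.90 in controls, 9.36 and 10.002 at 1 week, and 9.82 and 10.42 at 8 weeks. Within each sex the 8 week pool was the highest, at 0.39 ± 0.15 (SE, adjusted p = 0.207). Insig2, its paralogue, went the other way, with 8.95 and 9.20, then 9.09 and 9.08, then 8.87 and 8.82. Both its 8 week pools were the lowest of the 6, at -0.23 ± 0.15 (SE, adjusted p = 0.403), and its other kept probe sets ran from -0.30 to -0.11. Srebf2, the transcription factor chiefly tied to cholesterol genes, measured 9.02 and 8.75, then 9.24 and 9.08, then 9.55 and 8.93; its changes were 0.36 ± 0.17 (SE, adjusted p = 0.283) at 8 weeks and 0.28 at 1 week. Srebf1, chiefly tied to fatty acid genes, spanned only 9.88 to 10.04 over all 6 pools, and its change of -0.08 at 8 weeks became 0.084 with arrays centred on their medians. Scap read 10.05 and 9.92, then 10.03 and 9.90, then 10.07 and 10.22. Stard4, a cytosolic sterol carrier, stood at 9.32 and 9.27, then 9.44 and 9.42, then 9.54 and 9.76, so the groups lay in order of duration without overlap. Its change at 8 weeks was 0.36 ± 0.15 (SE, adjusted p = 0.236), while its other probe sets ran from -0.31 to 0.05.

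All 4 enzymes that supply or condense the fatty acid carbon were higher in both sexes at 8 weeks, with a median of 0.33. Fasn, fatty acid synthase, measured 10.15 and 10.51 in controls, 10.52 and 10.32 at 1 week, and 10.97 and 11.02 at 8 weeks. The 8 week pools were the highest, at 0.67 ± 0.18 above control (SE, adjusted p = 0.136). Acly, ATP citrate lyase, which supplies cytosolic acetyl-CoA, had 10.38 and 10.29, then 10.41 and 10.45, then 10.62 and 10.88, a change of 0.41 ± 0.15 (SE, adjusted p = 0.203). Acaca, acetyl-CoA carboxylase, ranged from 8.80 to 9.13 and was higher at 8 weeks by 0.20 ± 0.15 (SE, adjusted p = 0.473). Me1, the cytosolic malic enzyme that supplies NADPH, was highest after 1 week: 8.17 and 8.14 in controls, 8.67 and 8.56 at 1 week, 8.41 and 8.41 at 8 weeks. Its second kept probe set did not separate the durations, with 7.44 and 7.77 at 1 week and 7.33 and 7.80 at 8 weeks.

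Among the 8 enzymes that elongate, desaturate or activate fatty acids, 5 were higher in both sexes at 8 weeks and 1 was lower, with a median of 0.42. Scd1, the stearoyl-CoA desaturase, stood at 11.86 and 12.01 in controls, 12.47 and 11.88 at 1 week, and 12.56 and 12.69 at 8 weeks. The 8 week pools led, at 0.69 ± 0.23 (SE, adjusted p = 0.178), and the female 1 week pool lay close below them. Scd2, a second stearoyl-CoA desaturase, measured 11.67 and 11.98, then 11.66 and 11.76, then 11.70 and 11.95, a change of 0.00 ± 0.14 (SE, adjusted p = 0.995). Acsl4, an acyl-CoA synthetase with a preference for arachidonate, had 9.67 and 10.26 in controls, 9.59 and 10.23 at 1 week, and 10.23 and 10.91 at 8 weeks. The sexes differed, and within each sex the 8 week pool was higher by a like amount, 0.56 and 0.65 (mean 0.60 ± 0.13 SE, adjusted p = 0.105). Fads2, a front-end desaturase of polyunsaturated fatty acids, measured 8.38 and 8.54, then 8.45 and 8.66, then 8.91 and 8.96, a change of 0.48 ± 0.13 (SE, adjusted p = 0.143). Fads1, which acts after it, had 9.15 and 9.08, then 9.23 and 9.26, then 9.50 and 9.45, a change of 0.36 ± 0.13 (SE, adjusted p = 0.201). Elovl1, an elongase of very long chains, stood at 11.53 and 11.45, then 11.72 and 11.36, then 11.94 and 12.02. The 8 week pools of these last 3 genes did not overlap with any other pool. Elovl5, an elongase of polyunsaturated chains, was lower in both sexes at 8 weeks: it measured 11.46 and 11.63, then 11.48 and 11.63, then 11.30 and 11.50, a change of -0.14 ± 0.13 (SE, adjusted p = 0.539) that became 0.033 with arrays centred on their medians. Elovl6, which extends palmitate, was highest at 1 week, with 6.29 and 5.99 in controls, 7.05 and 6.48 at 1 week, and 6.49 and 5.72 at 8 weeks. Its second kept probe set had 6.59 and 6.29 at 1 week and 6.08 and 6.36 at 8 weeks, so the durations overlapped there.

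**Figure D3:**
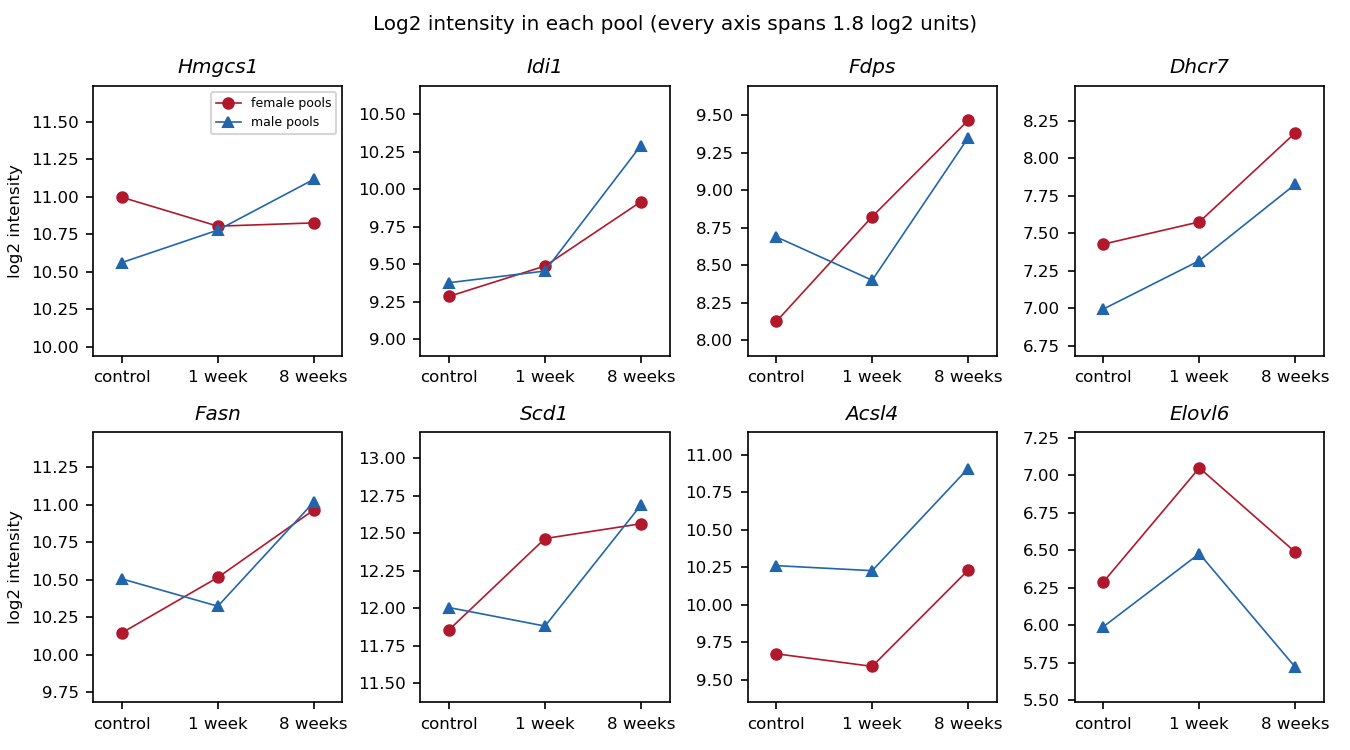
Log2 intensity of 8 genes in the control, 1 week and 8 week pools (female circles, male triangles, joined within a sex only to guide the eye). Idi1, Fdps, Dhcr7, Fasn and Scd1 have their 8 week pools above the other 4, and Acsl4 is shifted by sex and by duration. At the brightest probe set, used here for every gene, Hmgcs1 overlaps between groups and Elovl6 peaks at 1 week.

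RefSeq promoters were searched for sites of factors that act on genes of these pathways. A link between such sites and the changes in signal was not tested. A window from 250 bases before to 50 bases after each start (build GRCm38.p6) was present for 24 of the 31 members, with 34 windows in all, and 7 had no window: Fdps, Fdft1, Sqle, Stard4, Scd1, Scd2 and Fads1. The CCAAT box (CCAAT or, on the other strand, ATTGG), bound by the cofactor NF-Y, was present in 19 of the 34 member windows and in 37.4% of all 32851 windows. The core of the sterol regulatory element, CACCCCAC on either strand, was present in 2 of the 34, those of Hmgcs1 and Acat2, and in 2.87% of all windows. The E box CACGTG, which reads alike on both strands, was present in 6 of the 34, belonging to Dhcr7, Elovl5, Insig1, Sc5d and Scap, and in 7.15% of all windows. The only overlap was the double CCAAT box of Fasn. The 5 stretches below show how these letters sit before the start of genes for cholesterol synthesis, fatty acid synthesis and sterol sensing, with the motif in capitals, and each is written 5′ to 3′ on the strand of the gene.
Dhcr7: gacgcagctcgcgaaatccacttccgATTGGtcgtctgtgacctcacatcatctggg
Idi1: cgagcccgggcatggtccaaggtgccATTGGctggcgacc
Fasn: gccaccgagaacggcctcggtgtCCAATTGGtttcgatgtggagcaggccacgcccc
Insig1: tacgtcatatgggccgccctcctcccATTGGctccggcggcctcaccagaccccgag
Hmgcs1: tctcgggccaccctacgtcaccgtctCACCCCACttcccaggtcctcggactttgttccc
The Dhcr7 stretch lies at chr7:143830139-143830195 on the plus strand, with the motif 44 bases before the start, and that of Idi1 at chr13:8885566-8885605 on the plus strand, 9 bases before it. The Fasn stretch lies at chr11:120824576-120824632 on the minus strand, 54 bases before the start. The Insig1 stretch is at chr5:28071170-28071226 and the Hmgcs1 stretch at chr13:119690189-119690248, both on the plus strand, 211 and 128 bases before the start. These matches describe letters only; binding was not measured.

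After 1 week of activation the synthesis genes were nearer to control. The median change was 0.10, 0.13 in female and 0.02 in male pools, against 0.03 over all genes; without the female 1 week pool it was 0.0024. By limma 0 of the 63 probe sets passed, as 0% of all kept probe sets did, and the smallest adjusted p was 0.894. At an unadjusted p below 0.05, 2 of the 30 genes, Elovl6 and Me1, were higher and 0 were lower. Of all 13215 genes, 475 (3.59%) were higher and 125 lower. Both 1 week pools lay above both control pools in 10 of the 30 genes, where 15.1% of all genes did. Elovl6 had the highest value, 0.62 ± 0.17 (SE, adjusted p = 0.894), with 0.76 in female and 0.49 in male pools, and its second kept probe set had 0.59. Me1 followed at 0.46 ± 0.13 (SE, adjusted p = 0.894), and its second probe set had 0.63. Dhcr7 was 0.24 higher. The lowest genes with both sexes below control were Scd2 at -0.11, Acsl4 at -0.06, Mvd at -0.05 and Scap at -0.02. With all kept probe sets of a gene averaged, Scd2 stood at 0.035 and Acsl4 at 0.030, and with arrays centred on their medians Scap stood at 0.017. Leaving out 1 pool put Mvd between -0.21 and 0.11.

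Markers of fat tissue were higher in the same 1 week pools as Elovl6 and Me1. Of 7 kept adipose markers, 6 were higher in both sexes at 1 week, with a median of 0.53; their summed intensity was 1216 and 1299 in the control pools, 2139 and 1575 after 1 week and 1043 and 1621 after 8 weeks. Adipoq, the fat hormone adiponectin, measured 7.02 and 7.24 in controls, 8.31 and 7.48 at 1 week, and 4.60 and 7.26 at 8 weeks. The defining markers Lep, Cidea and Ucp1 were below the filter. Thrsp, a lipogenic regulator rich in fat and liver, was 0.88 higher at 1 week (adjusted p = 0.901). The part of fat tissue in the values of Elovl6 and Me1 was not tested.

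Compared directly, the 8 week pools had a higher signal than the 1 week pools for most members. The median difference was 0.20, 0.17 in female and 0.31 in male pools, against 0.04 over all genes, and 20 of the 30 genes were higher and 6 lower in both sexes, where 40.8% and 29.3% of all genes were. Both 8 week pools lay above both 1 week pools in 16 genes, where 24.1% of all genes did. By limma 0 of the 63 probe sets passed, as 0% of all kept probe sets did; at an unadjusted p below 0.05, 9 of the 30 genes were higher and 1 lower, where 10.1% and 6.89% of all genes were. With the robust intensity-dependent prior, 3 probe sets passed, of Acsl4, Elovl1 and Idi1 (4.76%, against 2.78% of all probe sets). The highest genes were Fdps at 0.80 ± 0.26 (SE, adjusted p = 0.230), Acsl4 at 0.66 ± 0.13 (SE, adjusted p = 0.135) and Idi1 at 0.63 ± 0.16 (SE, adjusted p = 0.173). Fasn was 0.57 and Dhcr7 0.55 higher. The lowest was Elovl6 at -0.66 ± 0.17 (SE, adjusted p = 0.174), ahead of Insig2 at -0.24, Me1 at -0.20, Elovl5 at -0.16 and Sc5d at -0.09. The second kept probe sets of Elovl6 and Me1 had -0.22 and -0.04. Sc5d stood at 0.036 with arrays centred on their medians. In 13 of the 30 genes both 8 week pools were above all 4 other pools, where 18.6% of all genes were: Scd1, Fads2, Fdps, Fads1, Fasn, Pmvk, Scap, Fdft1, Acly, Dhcr7, Idi1, Stard4 and Elovl1.

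Probe sets of the same gene did not always give the same value at 8 weeks. Of the 30 genes, 21 had several kept probe sets. Mvd had 0.13 at its brightest probe set and 1.20 ± 0.25 (SE, adjusted p = 0.101) at the other, which measured 6.53 and 6.26 in controls, 6.50 and 6.26 at 1 week, and 7.32 and 7.87 at 8 weeks. That probe set carries the _s_at suffix, given where the probes match several transcripts. Scd1 had 0.69 and 1.10, and Hmgcs1 0.19 at the brightest and 0.05 to 0.60 at the others, so these differed in size and not in sign. The signs differed, for example, for Fads1, with 0.36 and -0.73, and for Srebf2, with 0.36 and -0.17. Scd2 ranged from -0.98 to 0.15 and Sc5d from -0.03 to 0.73. For Elovl1 they ran from 0.20 to 1.09; 3 of the 4, among them the brightest, carry the _x_at suffix for probes shared with other sequences. The highest of them measured 6.37 and 7.42 in controls, 6.64 and 7.35 at 1 week, and 7.49 and 8.48 at 8 weeks. Its adjusted p of 0.0632 was the smallest among the 63.

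**Figure D4:**
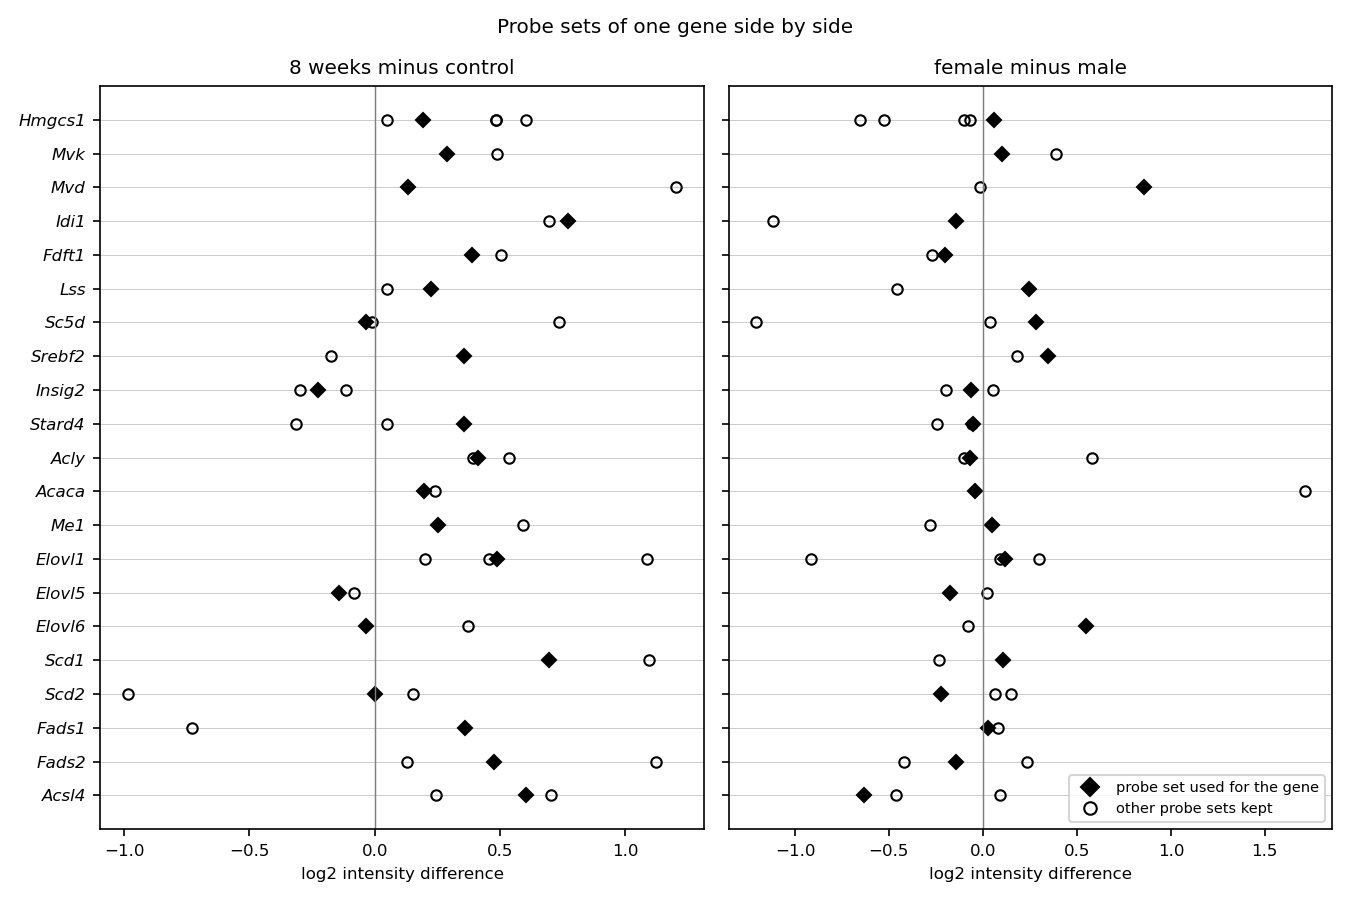
Log2 intensity differences of every kept probe set of the 21 genes with more than 1, for 8 weeks minus control (left) and female minus male (right); filled diamonds are the brightest probe set of a gene and open circles the others. Fads1 spans -0.73 to 0.36 on the left, and Acaca reaches 1.71 on the right while its brightest probe set is at -0.04.

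Member probe sets differed between the sexes at about the share of the whole array. Over the 3 groups, 5 of the 63 member probe sets passed (7.94%), where 8.3% of all kept probe sets did, with 1 higher and 4 lower in female pools. Leaving out a pool leaves 1 pool in a group, so whether these 5 would still pass cannot be read from such fits. Acsl4, named above, was lower in the female pool of every group. The difference was -0.63 ± 0.11 (SE, adjusted p = 0.0382) at its brightest probe set and -0.46 to 0.09 at the others. With 1 pool left out it was -0.66 to -0.61 at the brightest. An Idi1 probe set measured 8.33 and 9.41 in controls, 8.50 and 9.41 at 1 week, and 8.89 and 10.25 at 8 weeks, or -1.12 ± 0.13 (SE, adjusted p = 0.0229), where the brightest had -0.14. An Acaca probe set measured 5.87 and 4.41, then 6.39 and 3.95, then 6.004 and 4.77, or 1.71 ± 0.26 (SE, adjusted p = 0.0329); its male 1 week value is the floor set on dim signals, so that this size depends on the floor. A Hmgcs1 probe set had -0.65 ± 0.12 (SE, adjusted p = 0.0469) beside 0.06 at the brightest, and the Elovl1 probe set that was highest at 8 weeks had -0.92 ± 0.12 (SE, adjusted p = 0.0278) beside 0.09 to 0.30 at the 3 others.

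The response to the transgene, taken over both durations, was not shown to differ by sex. The female and male control pools also differed in label (FVB/N and SM22-rtTA only), which this comparison cannot separate from sex. By limma 0 of the 63 probe sets passed the interaction test, as 0% of all kept probe sets did, with an adjusted p of 1.00. At an unadjusted p below 0.05, 2 of the 63 had a higher change in female pools and 0 a lower one. Of all 27022 kept probe sets, 392 and 244 did. None of the 2 was the brightest of its gene. The change in female pools exceeded that in male pools most for Fdps, by 0.83, and then for Lss (0.65), Nsdhl (0.45), Fasn (0.43) and Scd1 (0.38). It was lowest relative to the male change for Hmgcs1 (-0.57), Fdft1 (-0.52), Mvd (-0.30), Insig1 (-0.27) and Acly (-0.24); for Mvd alone of these the sign was not the same at both durations.

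Genes of the neighbouring pathways were read from lists grouped by function. Like the members, these lists were chosen with earlier results of these data known. In the rest of the cholesterol pathway 7 of 9 kept genes were higher in both sexes at 8 weeks and 2 were lower, with a median of 0.46 and 0 passing the test. Cyp51, lanosterol demethylase, was 0.91 higher (adjusted p = 0.118) and Tm7sf2, a sterol reductase, 0.70 (adjusted p = 0.127). At 1 week this list had a median of 0.05. Other fatty acid synthesis genes had a median of 0.10 at 8 weeks, with 7 of 18 higher and 4 lower in both sexes and 0 passing; Elovl3, an elongase, was 0.71 higher (adjusted p = 0.123). Other sterol sensing and uptake genes had a median of -0.01, with 5 of 17 higher and 5 lower; Sp1, a transcription factor, had -0.52 and Stard5, a sterol carrier, 0.42. Genes of cholesterol efflux and the liver X receptor had a median of 0.13, with 7 of 14 higher and 2 lower; the highest were Ch25h, the cholesterol hydroxylase, at 1.17 (adjusted p = 0.109) and Apoc1, an apolipoprotein of lipid-laden macrophages, at 1.11 (adjusted p = 0.128). Triglyceride and lipid droplet genes had a median of 0.10, with 7 of 16 higher and 4 lower in both sexes and changes from -0.58 to 0.83. Fabp5, a fatty acid carrier, had 0.83 (adjusted p = 0.127) and Plin2, a droplet coat protein, 0.76 (adjusted p = 0.104). Fatty acid oxidation genes had a median of 0.03, with 6 of 18 higher and 3 lower in both sexes; Ucp3, a mitochondrial carrier, was 0.96 and Ehhadh, a peroxisomal enzyme, 0.70 higher. None of these lists had a gene that passed at 1 or 8 weeks.

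**Figure D5:**
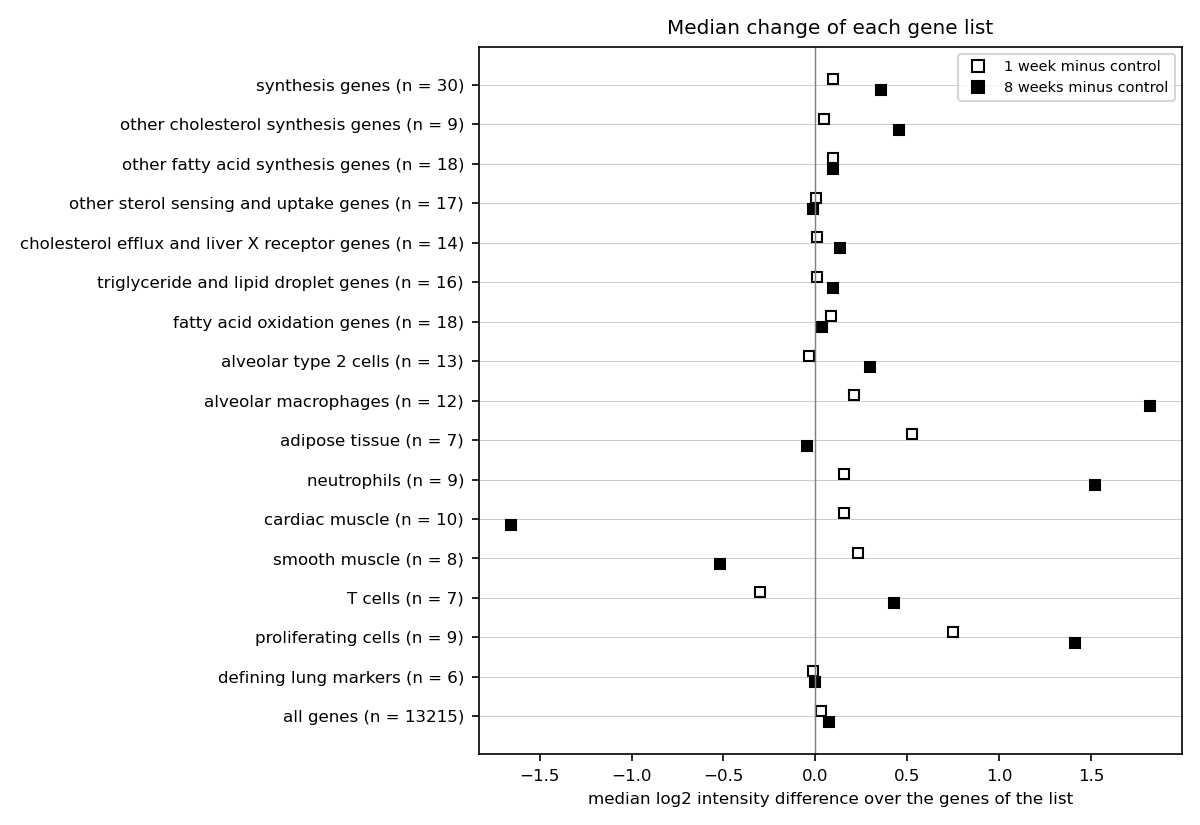
Median log2 intensity difference from control of each gene list (n is the number of genes with a kept probe set) at 1 week (open squares) and 8 weeks (filled squares). The synthesis genes stand at 0.10 and 0.36 and the other cholesterol synthesis genes at 0.05 and 0.46, while alveolar macrophage and neutrophil markers reach 1.82 and 1.52 at 8 weeks.

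Markers of lipid-handling and inflammatory cells were higher at 8 weeks, as the synthesis genes were. Of 13 kept alveolar type 2 cell markers, 11 were higher in both sexes, with a median of 0.30 and 0 passing; S100g and Il33 were 1.52 and 1.30 higher. Their summed intensity was 42687 and 45091 in the control pools, 47367 and 42341 after 1 week and 52520 and 53496 after 8 weeks; the same sum over the 30 synthesis genes was 27714 and 29206, then 30900 and 28963, then 34169 and 38063. Of 12 alveolar macrophage markers, 11 were higher in both sexes, with a median of 1.82 and 0 passing, led by Chil3 at 3.89 and Siglecf at 2.67, and their sum went from 3947 and 4823 in controls through 5868 and 4231 to 11925 and 9498 at 8 weeks. Of 9 neutrophil markers all were higher in both sexes, with a median of 1.52, and 4 passed: Mmp8 rose by 1.96 and Clec4d by 1.60 (both adjusted p = 0.0470), Trem1 by 1.501 (adjusted p = 0.0470) and Mmp9 by 1.52 (adjusted p = 0.0480). The sum over the list was 4021 and 4157 in controls, 3545 and 4835 at 1 week, and 11155 and 12153 at 8 weeks. In each of these 3 lists the 8 week pools had the highest sums of all 6. Of 9 markers of proliferating cells all were higher in both sexes at 8 weeks, with a median of 1.42; Ube2c passed, at 1.39 (adjusted p = 0.0470), and at 1 week 8 of the 9 were already higher, with a median of 0.75 and 0 passing. T cell markers had a median of 0.43 at 8 weeks. Smooth muscle markers, from the cells in which the transgene is driven, were lower in both sexes in 7 of 8 cases at 8 weeks, with a median of -0.52 and 0 passing, and had a median of 0.23 at 1 week. Their sum was 10386 and 8761 in controls, 11699 and 11272 after 1 week, and 7598 and 7237 after 8 weeks. Of 7 liver markers, Ahsg, Apoa1, Apoa2, Fgb and Ttr were below the filter. The part of these cells in the values of the synthesis genes was not tested.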

How the data were processed

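The deposited intensity values, 1 per probe set and array on a linear scale, were used as given; how the authors summarised and scaled the probes is not given in the sources used here. Members and gene lists were chosen with earlier results of these data known. With R 4.3.3 and limma 3.58.1 the 6 arrays were quantile normalized, values under the 20th percentile of all values (15.46) were set to it, log2 was taken, and the 27022 of 45037 probe sets with a mean above the 40th percentile were kept. Of all probe sets 34945 had 1 gene symbol in the platform annotation, 932 several and 9160 none; only the first kind was named. lmFit and eBayes were run on group and sex over all 6 arrays, and separately with a transgene by sex term, with Benjamini-Hochberg adjustment over all kept probe sets. With 2 residual degrees of freedom the small number of arrays limits the precision. Pools are of separate mice, but no group has a second pool of the same sex. All members are named; per comparison, those that passed, otherwise the 5 highest and 5 lowest with the same sign in both sexes, and of other lists those that passed at 8 weeks, otherwise up to 2. For the interaction the same sign at both durations was asked, and Mvd was added after its value was seen. The script was tested on simulated data. Alternatives covered scaling, floor, pseudocount, filter, suffixed probe sets, averaging, model terms, the variance prior and each array left out.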

Additional observations from a re-analysis of the deposited data

How the results depend on the processing

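The median change of the members at 8 weeks was 0.24 with the values as deposited and 0.51 with arrays centred. The number of member probe sets passing at 8 weeks was 0, but 2 with arrays centred or with a filter at the 60th percentile, 1 with a floor at the 40th percentile or with log2(value + 16), and 13 with the robust, intensity-dependent prior, which also gave 3 for 8 weeks against 1 week. For female against male it was 5 (7.94%), but 8 (12.7%) with log2(value + 16) or that prior. With dim probe sets kept in it was 0, as it was over all 45037. It was 2 (4.76%, against 7.28% of all) with suffixed ones left out. With 1 value per gene it was 3 genes (10%, against 9.86% of all). The share of all probe sets that passed moved too: at 8 weeks from 0.596% to 2.61% centred, 2.8% with the filter, 1.62% with the floor, 2.16% with log2(value + 16) and 7.09% with the prior, and for sex from 8.3% to 11% with log2(value + 16) and 15.5% with the prior. The causes were not tested. Leaving out each pool gave medians of 0.29 to 0.41 at 8 weeks, 0.0024 to 0.12 at 1 week and 0.14 to 0.31 for 8 weeks against 1 week. Such a fit leaves 1 pool in a group, so whether probe sets would still pass cannot be read from it. Chosen after seeing the data, 3 counts at 8 weeks were also followed. The 25 genes with a positive change became 22 to 28 and the 21 higher in both sexes 18 to 24; the 13 with an unadjusted p below 0.05 became 7 with the values as deposited, 8 without the sex term or with only the arrays compared, and 6 to 8 with a pool left out. Signs turned with arrays centred for Elovl5 (0.033) and Srebf1 (0.084) at 8 weeks, Scap at 1 week (0.017) and Sc5d at 8 weeks against 1 week (0.036). Without suffixed probe sets Hmgcs1 had -0.65 for female against male and Acly an interaction of 0.0100. With 1 value per gene Scd2 and Acsl4 at 1 week had 0.035 and 0.030, Acaca 0.84, Hmgcs1 -0.26 and Elovl1 -0.10 for female against male, and Acly and Stard4 interactions of 0.26 and 0.15. With a pool left out the sign turned within these ranges: Mvd (-0.21 to 0.11) and Scap (-0.095 to 0.048) at 1 week, Sc5d at 8 weeks against 1 week (-0.18 to 0.0012), Acaca (-0.13 to 0.030), Hmgcs1 (-0.14 to 0.23) and Elovl1 (-0.0011 to 0.21) for female against male, and the interactions of Scd1 (-0.018 to 0.76) and Stard4 (-0.33 to 0.018). The interaction could not be fitted without either control pool, and the alternatives on model terms were not run for it or for sex. Dim probe sets, near the floor, carry no usable order.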
